A study of Mus musculus with 18 samples.

Results

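The 8 genes described here are Ms4a1, Cd79a, Cd79b, Pax5, Cr2, Fcer2a, Bcl6 and Fcrla, a set of B cell and germinal centre genes chosen by symbol among the 54232 genes of the deposited count table, all 8 of which were found. They were read from bulk RNA-seq of whole lacrimal glands (LGs) of untreated males of 2 inbred strains, BALB/cJ (BALB/c) as the control and NOD.B10Sn-H2b/J (NOD.H-2b), aged 2, 4 or 6 months (2M, 4M and 6M). NOD.H-2b is a model of Sjögren's syndrome, a chronic autoimmune inflammation of the lacrimal and salivary glands. It has the NOD background but bears the H2b haplotype of C57BL/10 in place of the NOD MHC, so the strains differ over the whole genome and not at a single locus. There were 6 groups, with 3 mice in each.

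Immature and mature B cells carry an antigen receptor in which the products of Cd79a and Cd79b pass the signal of the membrane immunoglobulin into the cell. PAX5 holds cells in the B lineage and is lost when they become plasma cells, which keep making immunoglobulin but lose most other B cell surface proteins. In a germinal centre, B cells mutate and select their receptors under the control of the repressor BCL6, with help from follicular helper T cells and around follicular dendritic cells that display antigen. BCL6 is also made outside the B lineage, in T cells, macrophages and many epithelial and metabolic tissues, whereas most of the other genes are largely restricted to B cells, with Cr2 and Fcer2a also made by follicular dendritic cells.

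The total counts per mouse ranged from 49480781 to 103936830, and 1 count was worth between 0.0107 and 0.0234 CPM, the count scaled to library size with TMM factors. The libraries were glands by their secretory genes, with the lacrimal acinar list summing to between 78630 and 174821 CPM in every mouse. At 2M in NOD.H-2b, replicate 1 stood apart from the other mice of its group in the B cell genes, and the counts of called genes that rest on this group are also given without it. In whole glands, fewer B cells and less RNA per B cell cannot be told apart.

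The genes lie on 7 chromosomes of GRCm38 and none neighbours another. Ms4a1 is at chr19:11249675-11266241, Cd79a at chr7:24897381-24902197, Cd79b at chr11:106311341-106314762 and Pax5 at chr4:44524757-44710487. Cr2 is at chr1:195136811-195176716 and Fcrla at chr1:170917576-170927583, far apart on the same chromosome. Fcer2a is at chr8:3681737-3694175 and Bcl6 at chr16:23965052-23988852. Exons of Ms4a1, Pax5 and Bcl6 overlap genes on the opposite strand, which are 4930526L06Rik for Ms4a1, Gm12462 and 5730488B01Rik for Pax5 and Gm37419 for Bcl6. The strand setting of the counting is not given in the sources used here, so reads of these pairs may not have been told apart.

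RefSeq promoter windows of GRCm38.p6 matched 6 of the 8 genes, with 9 windows in all, and none was matched for Ms4a1 and Cd79b. The 250 bases before each start were searched on both strands for the octamer ATGCAAAT read by Oct factors and their B cell coactivator, the palindromic site of EBF1, the shorter EBF1 sequence CAAGGGA, the Ets core GGAAGT, the BCL6 and STAT motif TTCNNNGAA and the TATA box TATAAA. The windows below are shown because they hold such letters in the genes that moved together (Cd79a, Cr2, Fcer2a) and in Bcl6, which did not move with them. Capitals mark the matches and each window is read 5′ to 3′ on the gene's strand. At most 200 bases of a window are printed, and the parts that lie in annotated exons were left out.
Cd79a, plus strand, chr7:24897247-24897380: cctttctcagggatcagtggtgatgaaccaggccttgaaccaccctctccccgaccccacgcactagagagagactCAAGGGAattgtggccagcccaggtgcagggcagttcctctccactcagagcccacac
Cr2, minus strand, chr1:195176720-195176919: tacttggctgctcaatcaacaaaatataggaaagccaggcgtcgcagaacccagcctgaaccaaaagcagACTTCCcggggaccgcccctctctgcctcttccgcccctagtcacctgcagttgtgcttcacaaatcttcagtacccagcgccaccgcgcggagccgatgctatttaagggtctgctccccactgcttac
Fcer2a, minus strand, chr8:3694176-3694375: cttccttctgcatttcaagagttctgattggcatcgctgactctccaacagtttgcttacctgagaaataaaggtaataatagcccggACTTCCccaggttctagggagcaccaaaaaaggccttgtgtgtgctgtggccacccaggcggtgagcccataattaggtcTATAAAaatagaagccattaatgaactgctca
Bcl6, minus strand, first window, chr16:23988853-23989052: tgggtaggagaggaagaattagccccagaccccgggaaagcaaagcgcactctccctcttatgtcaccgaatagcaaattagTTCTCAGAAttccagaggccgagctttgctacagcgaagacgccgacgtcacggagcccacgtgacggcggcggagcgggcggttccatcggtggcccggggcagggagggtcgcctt
Bcl6, minus strand, second window, chr16:23981284-23981483: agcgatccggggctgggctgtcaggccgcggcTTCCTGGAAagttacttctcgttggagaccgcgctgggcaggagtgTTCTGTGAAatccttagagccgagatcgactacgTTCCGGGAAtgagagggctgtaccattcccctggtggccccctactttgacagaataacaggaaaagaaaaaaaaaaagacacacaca

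The BCL6 and STAT motif occurred 4 times in the windows of Bcl6 and in no window of the other 5 genes, and 7.02% of all 32851 windows of this length held it. The shorter EBF1 sequence was found in Cd79a, against 4.21% of all windows. The Ets core was found in Cd79a, Cr2 and Fcer2a, against 19.7% of all windows, and the match of Cd79a lay outside the stretch printed. The TATA box was found in a single window of Fcer2a, against 12.4%. Neither the octamer (1.60% of all windows) nor the EBF1 palindrome (0.779%) was found in the 9 windows, and Pax5 and Fcrla held none of the letters searched.

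Ms4a1 encodes CD20, a surface protein of mature B cells. In BALB/c it was at 0, 3 and 0 counts at 2M, at 0, 2 and 5 counts at 4M and at 1, 0 and 0 counts at 6M. In NOD.H-2b it was at 4, 318 and 107 counts at 2M, at 2867, 1451 and 965 counts at 4M and at 4922, 1916 and 2446 counts at 6M. All 6 older NOD.H-2b mice lay far above all BALB/c mice, and at 2M the lowest NOD.H-2b mouse lay only 1 count above the highest BALB/c mouse.

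Cd79a and Cd79b encode the signalling partners of the membrane immunoglobulin. Cd79a had 0, 2 and 1 counts in BALB/c at 2M, 28, 22 and 49 counts at 4M and 44, 34 and 22 counts at 6M. In NOD.H-2b it had 24, 208 and 106 counts at 2M, 2535, 1292 and 930 counts at 4M and 4369, 1691 and 2169 counts at 6M. Thus Cd79a did not overlap between the strains at any age, and the lowest NOD.H-2b mouse at 2M, at 0.394 CPM, lay below the older BALB/c mice, at 0.447 to 0.731 CPM. Cd79b was at 2, 3 and 1 counts in BALB/c at 2M, at 11, 13 and 56 counts at 4M and at 13, 30 and 10 counts at 6M. Cd79b in NOD.H-2b was at 11, 231 and 114 counts at 2M, at 2280, 1225 and 745 counts at 4M and at 3385, 1255 and 1667 counts at 6M. The strains were separate at each age for this gene as well.

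Pax5, the transcription factor that maintains B cell identity, had at most 3 counts in any BALB/c mouse. In NOD.H-2b it rose from 1, 290 and 84 counts at 2M to 6106, 2364 and 2963 counts at 6M, with 3767, 1890 and 1267 counts at 4M. At 2M NOD.H-2b replicate 1 lay within the BALB/c range, and the other mice of that group did not.

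Cr2 encodes complement receptors that bind opsonised antigen on B cells and follicular dendritic cells, and Fcer2a encodes CD23, the low-affinity IgE receptor of follicular B cells. Cr2 had at most 4 counts in any BALB/c mouse. In NOD.H-2b, Cr2 had 2, 243 and 77 counts at 2M, 2226, 1140 and 773 counts at 4M and 3782, 1286 and 2104 counts at 6M. Fcer2a had 14, 18 and 5 counts in BALB/c at 2M, 18, 13 and 15 counts at 4M and 28, 6 and 6 counts at 6M. These Fcer2a counts were present in all 9 BALB/c mice, and NOD.H-2b replicate 1 at 2M, with 3 counts, lay below all of them. The other NOD.H-2b mice had 164 and 64 counts of Fcer2a at 2M, 1960, 1298 and 741 counts at 4M and 2930, 1066 and 1451 counts at 6M.

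Fcrla, an intracellular Fc receptor-like protein of B cells, had 0, 5 and 1 counts in BALB/c at 2M, 12, 1 and 25 counts at 4M and 10, 16 and 5 counts at 6M. In NOD.H-2b Fcrla had 7, 83 and 51 counts at 2M, 993, 531 and 293 counts at 4M and 1650, 576 and 776 counts at 6M. The strains did not overlap at any age, by 2 counts at 2M.

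Bcl6 behaved unlike the other 7 genes. Its level in BALB/c was 21.2, 89.8 and 30.0 CPM at 2M, 136, 61.1 and 87.3 CPM at 4M and 59.6, 145 and 32.0 CPM at 6M. In NOD.H-2b it was 62.9, 26.7 and 36.2 CPM at 2M, 42.0, 46.0 and 96.4 CPM at 4M and 53.5, 55.0 and 45.4 CPM at 6M. The strains overlapped at every age, and in BALB/c the highest mouse exceeded the lowest by 4.23-fold at 2M and 4.55-fold at 6M. With at least 1110 counts in each mouse, this spread between mice was far larger than counting error.

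**Figure D1:**
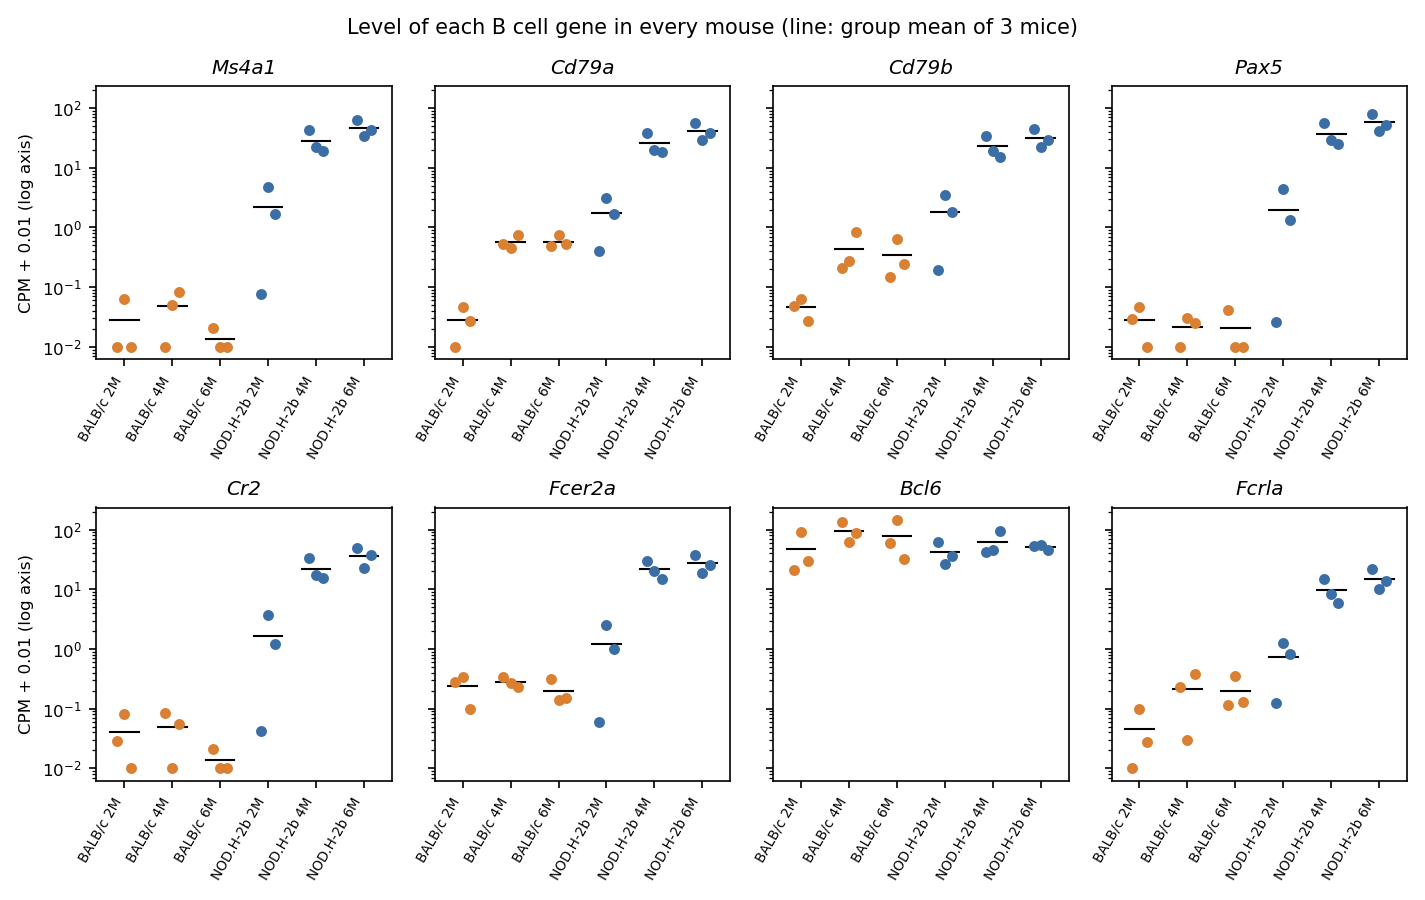
Level of each gene (CPM plus 0.01, log axis) in every mouse by strain and age, with points for the 18 mice and lines for the means of 3. In BALB/c, Ms4a1, Pax5 and Cr2 are near the bottom of the axis, and Cd79a, Cd79b, Fcer2a and Fcrla reach at most 0.835 CPM. In NOD.H-2b mice of 4M and 6M, the 7 genes other than Bcl6 lie between 5.87 and 79.8 CPM. Bcl6 lies between 21.2 and 145 CPM in both strains.

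The strain comparison asked which of these genes differed in the NOD.H-2b gland at each age, a gene being called where its FDR was under 0.05 and it differed at least 2-fold. At 2M, 4 of the 8 genes had enough counts to be tested and 2 were called higher in NOD.H-2b, Cd79a and Cd79b, against 12.0% of all genes tested called higher. Cd79a was higher by 6.47 ± 1.18 on the log2 scale (SE, edgeR FDR 0.00544) and Cd79b by 5.62 ± 1.42 (FDR 0.0287). Both passed the filter on low counts only through the NOD.H-2b mice, so that a difference was needed for them to be tested, and their fitted folds depend on 3 and 6 BALB/c counts in all. The ratio of summed counts, with an exact 95% interval of counting error only, was 97.6 (33.1 to 475) for Cd79a and 51.4 (23.4 to 141) for Cd79b. Ms4a1, Cd79a, Cd79b and Fcrla were separate between the strains and higher in NOD.H-2b, as were 25.3% of all genes. The difference of Fcer2a, 2.43 ± 1.28, did not pass (FDR 0.204), and that of Bcl6 was -0.13 ± 0.72 (FDR 0.912). Ms4a1, Pax5, Cr2 and Fcrla were left out by the filter on low counts. Without NOD.H-2b replicate 1, all 8 were tested and 7 were called higher, against 12.7% of all genes. That mouse was set apart by its low counts of these same genes, so the larger count follows from the choice and is a description only. No BALB/c mouse of 2M was over the filter minimum for Ms4a1, Pax5, Cr2 and Fcrla, which then passed only through NOD.H-2b. Without BALB/c replicate 1, BALB/c replicate 3 or NOD.H-2b replicate 3 the count was 1.

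At 4M and at 6M all 8 genes were tested and the 7 other than Bcl6 were called higher, against 15.6% of all genes at 4M and 18.8% at 6M. The filter asked for 3 mice over a minimum of about 10 counts. Only the NOD.H-2b mice met it for Ms4a1, Pax5, Cr2 and Fcrla at both ages, and for Cd79b and Fcer2a at 6M, so the count of calls is given as a description. No BALB/c mouse was over the minimum for Ms4a1, Pax5 and Cr2, whose fitted fold changes depend on these small counts, and the ratio of summed counts scaled by library size is given for them with an exact 95% interval of counting error only. Ms4a1 was 712 times higher (345 to 1772) at 4M, with 7 BALB/c counts in all, and 8897 times (1596 to 351457) at 6M, with a single BALB/c count. The ratio of Pax5 was 3266 (904 to 26975) at 4M and 3652 (1249 to 17713) at 6M. Cr2 had a ratio of 558 (270 to 1388) at 4M and 6873 (1233 to 271513) at 6M.

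The other genes had more BALB/c counts. Cd79a was higher in NOD.H-2b by 5.48 ± 0.42 at 4M (FDR 0.000242) and by 6.26 ± 0.33 at 6M. Cd79b was higher by 5.64 ± 0.65 at 4M (FDR 0.00188) and by 6.75 ± 0.55 at 6M. For Fcer2a the differences were 6.31 ± 0.35 and 7.03 ± 0.42, and for Fcrla 5.47 ± 0.72 and 6.46 ± 0.48. All 7 genes were separate between the strains at both ages, and higher without overlap were 28.4% of all genes at 4M and 31.2% at 6M. No mouse left out changed the 7 calls at either age.

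Bcl6 was not called at any age. Its difference was -0.62 ± 0.48 at 4M (FDR 0.376) and -0.59 ± 0.60 at 6M (FDR 0.459). The SE is of the size of the difference, so neither a moderate fall nor an unaltered level could be told from these mice.

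**Figure D2:**
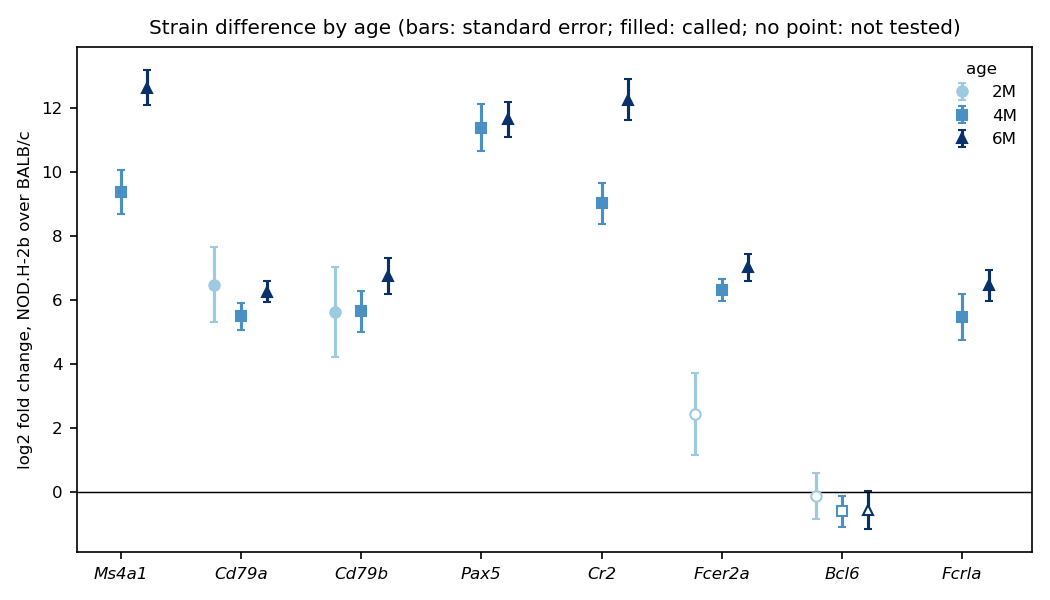
Log2 fold change of NOD.H-2b over BALB/c (y axis) for each gene at 2M, 4M and 6M, with standard errors as bars and filled points for called genes. Bcl6 lies between -0.62 and -0.13 and is not called at any age, and at 4M and 6M the others lie between 5.47 and 12.65.

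T cell markers moved with the B cell genes across the strains. All 9 T cell genes tested at 2M and all 10 at 4M and 6M were called higher in NOD.H-2b, against 12.0%, 15.6% and 18.8% of all genes, and at 4M their summed level ranged over 72.2 to 130 CPM in that strain against 1.20 to 6.11 CPM in BALB/c. In BALB/c at 2M the whole T cell list summed to between 0.423 and 0.783 CPM, against a filter minimum of 0.167 CPM per gene. Most of its genes thus needed the NOD.H-2b mice to be tested at 2M. All lists went through this filter, and their counts of calls are given as descriptions. Of 8 macrophage markers, 7, 6 and 7 were called higher at 2M, 4M and 6M, against the same shares. Of 7 lacrimal acinar genes, 2, 2 and 3 were called lower, against 3.76%, 4.72% and 6.03% of all genes tested. The part of these cell types in the results was not tested.

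With age, Cd79a and Cd79b rose in BALB/c, while Ms4a1, Pax5 and Cr2 had at most 5 counts in any mouse. From 2M to 4M, 4 of the genes were tested and 2 rose, Cd79a by 4.81 ± 0.65 (FDR 0.00069) and Cd79b by 3.53 ± 0.73 (FDR 0.00893), against 2.07% of all genes called higher. From 2M to 6M, 1 of 3 tested rose, Cd79a by 4.80 ± 0.65 (FDR 0.00156), against 1.57% of all genes. Without BALB/c replicate 1 of 6M the count was 2. These genes passed the filter only through the older mice, and the fitted rises depend on 3 counts of Cd79a and 6 of Cd79b at 2M. A fit of all 18 mice called 0 in both intervals, as did a minimum of 10 counts in every mouse, and glmTreat called 1 from 2M to 4M. From 4M to 6M edgeR called 0 of 5, against 0.0180% of all genes, with 0 at an unadjusted p under 0.05 and 0 by DESeq2.

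The imbalance of Cd79a, Cd79b, Fcer2a and Fcrla against Ms4a1 in older BALB/c was larger than counting error. Over the 6 BALB/c mice of 4M and 6M, Cd79a had 199 counts and Ms4a1 had 8, so that Cd79a made up 96.1% of both (92.5% to 98.3%, exact 95% interval of counting). In NOD.H-2b at the same ages Cd79a had 12986 counts and Ms4a1 had 14567, a share of 47.1% (46.5% to 47.7%). The corresponding share of Cd79b against Ms4a1 was 94.3% (89.1% to 97.5%) in BALB/c and 42.0% (41.4% to 42.6%) in NOD.H-2b. Fcrla against Ms4a1 was at 89.6% (80.6% to 95.4%) in BALB/c and at 24.9% (24.3% to 25.5%) in NOD.H-2b. Fcer2a was at 91.5% (83.9% to 96.3%) and 39.3% (38.7% to 40.0%). Pax5 and Cr2, with few BALB/c counts, showed no such imbalance. Their BALB/c intervals, 13.9% to 68.4% and 24.7% to 75.3%, took in the NOD.H-2b shares of 55.8% and 43.7%. NOD.H-2b replicate 1 at 2M, with 24 counts of Cd79a and 4 of Ms4a1, lay nearer the BALB/c share for Cd79a (85.7%, 67.3% to 96.0%). For the other genes its shares rest on fewer counts. They were 73.3% (44.9% to 92.2%) for Cd79b, 63.6% (30.8% to 89.1%) for Fcrla and 42.9% (9.90% to 81.6%) for Fcer2a.

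**Figure D3:**
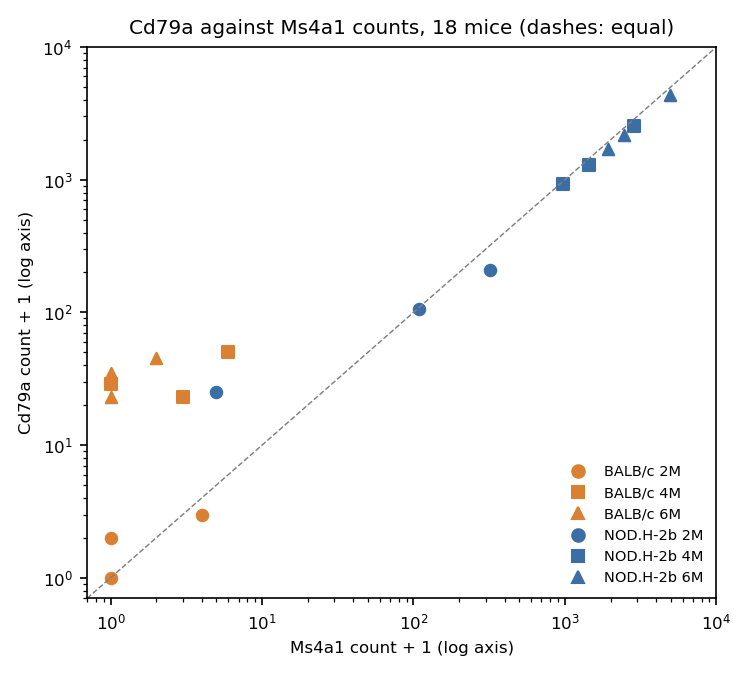
Counts of Cd79a (y axis) against Ms4a1 (x axis), each plus 1 on a log axis, for the 18 mice, with equal counts on the dashed line. The NOD.H-2b mice of 4M and 6M lie along the line, while the 6 older BALB/c mice have 22 to 49 counts of Cd79a and at most 5 of Ms4a1.

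Some plasma cell genes moved in BALB/c over the same interval. Jchain, which joins polymeric IgA and IgM, rose by 4.28 ± 0.49 from 2M to 4M (FDR 0.0153). Irf4, needed for plasma cell formation, rose by 2.18 ± 0.26 and Mzb1, a chaperone of immunoglobulin, by 1.63 ± 0.31. Pou2af1, a coactivator of Oct factors from the list of B cell transcription factors, rose by 4.23 ± 0.42. Of the plasma cell list, 3 of 8 were called higher, against 2.07% of all genes. The list summed to between 594 and 614 CPM at 2M and between 696 and 800 CPM at 4M. It includes Xbp1 and Sdc1, which the gland also expresses. The part of plasma cells in the Cd79a and Cd79b counts was not tested.

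In NOD.H-2b, all of the genes but Bcl6 were higher at 4M than at 2M in every mouse. From 2M to 4M, 3 of the 8 genes were called higher, Cd79a by 3.87 ± 0.76 (FDR 0.0335), Fcer2a by 4.17 ± 0.98 (FDR 0.0499) and Fcrla by 3.73 ± 0.80 (FDR 0.0404), against 5.97% of all genes. The fitted rises of Ms4a1, Cd79b, Pax5 and Cr2 were of like size, between 3.63 and 4.26, with FDRs between 0.0604 and 0.0873, and all 7 genes were separate between the ages, as were 21.8% of all genes in this direction. Leaving out 1 mouse gave 0 calls for 2M replicate 3 or any mouse of 4M, 1 call for 2M replicate 2 and 4 calls for 2M replicate 1. DESeq2 and a fit of all 18 mice each called 7, while no filter on low counts, glmTreat and a replicate block each gave 0 and a minimum of 10 counts in every mouse gave 1.

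From 2M to 6M, 7 genes were called higher in NOD.H-2b, by 4.08 (Cd79b) to 4.87 (Pax5), against 10.9% of all genes, with FDRs between 0.0121 and 0.0356. The count was 2 when 2M replicate 3 or any mouse of 6M was left out, and 7 without 2M replicate 1. It was 0 with glmTreat and with a replicate block, 4 with no filter and 2 with a minimum of 10 counts in every mouse. From 4M to 6M edgeR called 0 of 8, against 0.00555% of all genes, with 0 at an unadjusted p under 0.05 and 0 by DESeq2, and all 8 genes overlapped, whereas 8.37% of all genes were higher without overlap. The differences of the 7 genes lay between 0.36 ± 0.33 (Fcer2a) and 0.74 ± 0.38 (Ms4a1). Bcl6 differed by 0.55 ± 0.47 from 2M to 4M (FDR 0.491) and by 0.28 ± 0.33 from 2M to 6M (FDR 0.550).

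Whether the strain difference itself changed with age was tested on all 18 mice. From 2M to 6M the difference of Fcer2a grew by 4.60 ± 1.45 (edgeR FDR 0.0484), the only one of the 8 genes to pass, against 3.60% of all genes. It no longer passed without 9 of the 12 mice left out in turn, as given in the closing section. Cd79a, whose level rose in both strains, had a change of -0.22 ± 1.46 (FDR 0.946). For Ms4a1, Pax5 and Cr2, with almost no BALB/c counts, the SEs were between 4.98 and 6.44, so a change of several log2 units could not have been detected. From 2M to 4M edgeR called 0 of 8, against 0.361% of all genes, with 1 (Fcer2a) at an unadjusted p under 0.05 and 1 by DESeq2.

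Within the NOD.H-2b glands of 4M and 6M, the level of the B cell genes varied between mice. The highest mouse exceeded the lowest by 2.00-fold (Fcer2a) to 2.56-fold (Fcrla) at 4M and by 1.92-fold (Ms4a1) to 2.20-fold (Cr2) at 6M, and the same mouse, replicate 1, was highest for all 7 genes at each age. Bcl6 was lowest at 4M in that mouse. Relative to the mean of Ms4a1, Cd79a and Cd79b, on a scale of log2 of CPM plus 0.1, Pax5 stood at 0.56, 0.52 and 0.53 at 4M and at 0.55, 0.56 and 0.52 at 6M. These 6 ratios lay within 0.05 of each other, while the level of Pax5 differed by 2.25-fold at 4M and by 1.93-fold at 6M between mice. The ratios of the other genes varied more, from -0.31 to 0.02 for Cr2, from -0.58 to -0.02 for Fcer2a and from -1.56 to -1.30 for Fcrla. The share of Cd79b in the sum of its counts and those of Ms4a1 was between 43.6% and 45.8% at 4M and between 39.6% and 40.7% at 6M.

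Between strains, the same ratio could not be read as a property of the 5 genes. In BALB/c the reference itself lies near the pseudocount, with at most 5 counts of Ms4a1 in any mouse and at most 2 of Cd79a at 2M, and Pax5 and Cr2 had at most 4 counts. The mean ratio was 0.20 in NOD.H-2b and -1.05 in BALB/c for Pax5, -0.29 and -0.94 for Cr2, -0.50 and 0.45 for Fcer2a, -1.26 and -0.15 for Fcrla, and 2.21 and 8.03 for Bcl6. With Ms4a1 alone as reference, the difference of Pax5 was 0.18 in place of 1.25, and that of Cr2 was -0.42 in place of 0.65. The values are given as a description, and no strain difference is read from them.

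Between 2M and 6M in NOD.H-2b, Pax5 and Bcl6 were separate on this relative scale, with a difference of 1.02 for Pax5 and -4.54 for Bcl6, and the other 3 genes overlapped. Without replicate 1 of 2M these differences were 0.61 and -3.13, and the same count of 2 genes was separate. With 3 mice against 3 the smallest exact p is 0.1, which both reached, so no difference could pass. Without NOD.H-2b replicate 2 of 2M, all 5 genes were separate. The level of Bcl6 itself differed by 0.28 over this interval and was not called, while the 3 reference genes were called higher. Its fall on the relative scale thus restates the rise of the reference. The share of all genes separate on this scale was not computed, so these counts are descriptions only.

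**Figure D4:**
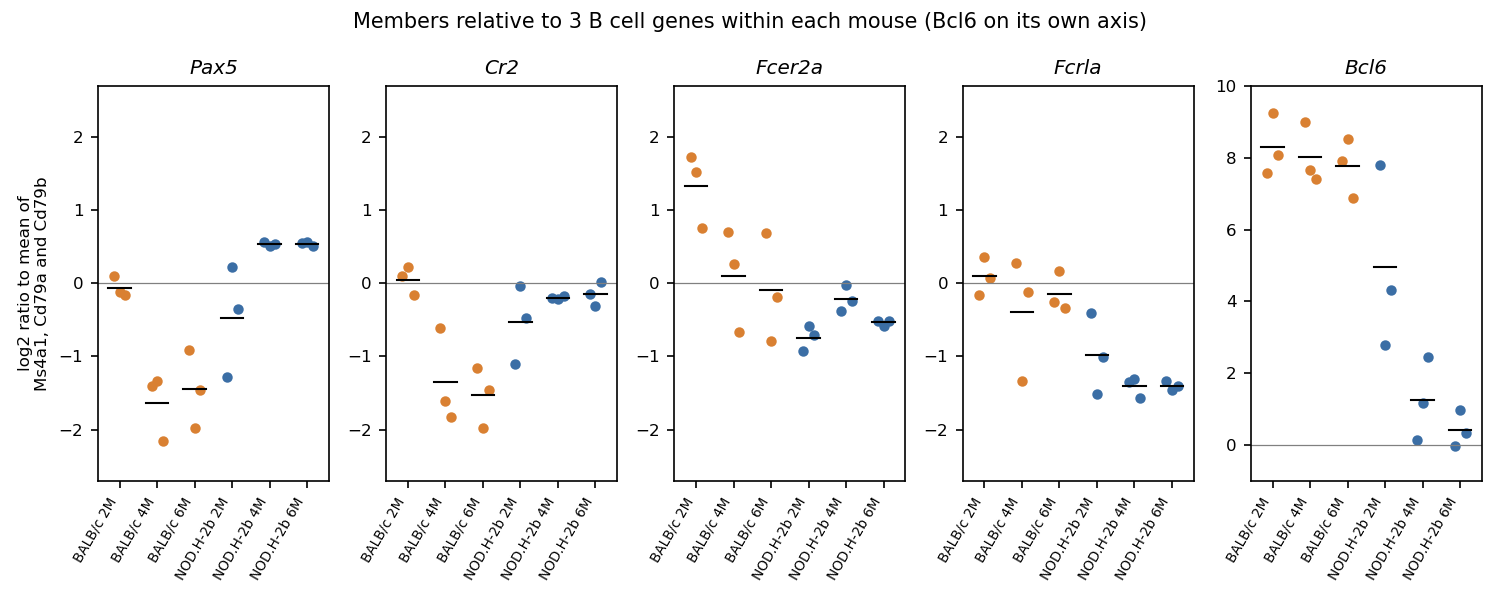
Log2 ratio of each of 5 genes to the mean of Ms4a1, Cd79a and Cd79b within a mouse (y axis), by strain and age, with points for mice and lines for the means of 3 (Bcl6 on its own axis). In NOD.H-2b at 4M and 6M the 6 points of Pax5 lie between 0.52 and 0.56. Over all NOD.H-2b mice, those of Bcl6 range from 7.79 in replicate 1 of 2M to -0.03 in replicate 1 of 6M.

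To compare genes with each other, levels were divided by exonic length in kb. In BALB/c, Bcl6 stood first at every age, at 7.02, 14.1 and 11.8 CPM per kb at 2M, 4M and 6M, and its range was separate from that of the next gene. Fcer2a was second at 2M (0.0732 CPM per kb) and Cd79a at 4M (0.387) and 6M (0.391). In NOD.H-2b at 6M the order was Cd79a (28.5 ± 9.68, SD, n = 3), Cd79b (22.2 ± 7.94), Fcer2a (8.87), Fcrla (8.64), Bcl6 (7.66), Ms4a1 (7.58), Pax5 (6.51) and Cr2 (4.47 CPM per kb). Only the step from Cd79b to Fcer2a separated neighbours beyond their ranges. At 4M the first of the order were Cd79a (17.6), Cd79b (15.9) and Bcl6 (9.18 CPM per kb), and no neighbours were separate. The level of Bcl6, first in NOD.H-2b at 2M (6.26 CPM per kb), was below those of Cd79a and Cd79b at 4M and below those of Cd79a, Cd79b, Fcer2a and Fcrla at 6M.

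Across the 9 NOD.H-2b mice, Pearson's r between the 21 pairs of the 7 genes lay between 0.986 and 0.999 on the log2 scale, and that of Bcl6 with each of them between 0.054 and 0.171. These are descriptions, since the mice share age groups that differ in all 7 genes. Within the 6 mice of 4M and 6M the pairs lay between 0.925 and 0.998, and those with Bcl6 between -0.628 and -0.497. Without replicate 1 of 2M, the r of Bcl6 with the others lay between 0.474 and 0.529. In the 9 BALB/c mice the 21 pairs ranged from -0.275 to 0.878.

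Of 19109 other genes, those among the 10 most like the mean of the 8 genes over the 9 NOD.H-2b mice were Cxcr5, Bank1, Ighd, H2-Ob, Fcmr, Ikzf3, Tspan32, Siglecg and Nxpe3, with r between 0.997 and 0.999. Cxcr5 is the follicle homing receptor, Fcmr the IgM Fc receptor and Ighd the IgD heavy chain. H2-Ob, a subunit of the MHC class II chaperone H2-O of B cells, was among the 3 most like genes for Ms4a1, Cd79b and Pax5. Bcl6 was most like Uba2 (r = 0.944), Gm48529 (0.931) and Mina (0.920). None of these 3 appeared for another gene.

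Genes that act around the receptor rose with these genes. Of 25 genes of B cell receptor signalling, 15 of 23 tested were called higher at 2M, 23 of 25 at 4M and 24 of 25 at 6M, against 12.0%, 15.6% and 18.8% of all genes, with a median log2 fold change of 3.95 at 6M. Cd22, an inhibitory coreceptor, was higher by 6.95 ± 1.32 at 2M (FDR 0.0110) and by 8.60 ± 0.56 at 6M. Ighd was higher by 4.33 ± 1.21 at 2M and 8.98 ± 0.51 at 6M. Bank1, a B cell scaffold, differed by 3.82 ± 1.20 at 2M (FDR 0.0625), and Siglecg, a sialic acid receptor that dampens signalling, by 3.21 ± 1.13 (FDR 0.0795), and both were called at 4M and 6M. Cd81, a tetraspanin found on many cells, differed by less than 2-fold at each age (0.39, 0.36 and 0.73).

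In a comparison chosen after seeing the data, the lists were counted again at 2M without NOD.H-2b replicate 1, where 12.7% of all genes were called higher. Called higher were 20 of 25 genes of B cell receptor signalling, 6 of 12 transcription factors, 4 of 9 germinal centre genes and 4 of 5 follicular helper T cell genes. The counts were 2 of 7 for follicular dendritic cells, 5 of 9 for marginal zone and B1 cells, 4 of 7 for partners of CR2 and 4 of 11 for partners and targets of BCL6. They were 2 of 3 for Fc receptor-like genes, 8 of 8 for the MS4A family, 10 of 10 for T cells and 7 of 8 for macrophages. The mouse left out had been set apart by its low counts of B cell genes. Its receptor signalling list summed to 225 CPM, against 329 and 378 CPM in the other mice of its group. A larger count in lists where that mouse was lowest follows from the choice, and all these counts are descriptions only.

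Of 12 B cell transcription factors, 4, 9 and 10 were called higher at 2M, 4M and 6M, against 12.0%, 15.6% and 18.8% of all genes. Ikzf3, Pou2f2 and Ikzf1 were called at all ages, by 5.91, 4.69 and 4.12 at 6M. Spib, a PU.1 relative, was called at 4M and at 6M (10.2 ± 0.51), and at 2M its difference of 10.6 ± 2.61 had an FDR of 0.0798. Ebf1, which acts above Pax5 and is also made by stromal and fat cells, had 366 to 493 counts in BALB/c at 2M and differed by 0.18 ± 0.18 there (FDR 0.483), by 1.77 ± 0.31 at 4M and by 2.40 ± 0.18 at 6M.

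Some markers of the germinal centre itself were called. Of 12 listed genes, 11 were in the table, and 3 of 8 tested were called higher at 2M, 3 of 9 at 4M and 5 of 9 at 6M, against 12.0%, 15.6% and 18.8% of all genes, with a median of 1.16 at 6M. Their summed level was between 47.7 and 52.1 CPM in BALB/c and between 70.8 and 92.1 CPM in NOD.H-2b mice of 4M. Rgs13, a regulator of chemokine signalling in germinal centre B cells, had at most 12 counts in any mouse. It could not be tested at this depth, and the NOD.H-2b glands of 6M held 1916 to 4922 counts of Ms4a1.

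The germinal centre genes that were called were moderate in size or not restricted to this cell. Mybl1, a Myb relative, was higher by 1.70 ± 0.40, 2.52 ± 0.47 and 2.23 ± 0.32 at 2M, 4M and 6M, and Nuggc, a nuclear GTPase of germinal centre B cells, by 2.49 ± 0.52, 2.01 ± 0.32 and 1.59 ± 0.40. Gcsam, a signalling adaptor, was called at 2M (2.88 ± 0.69) and 6M (2.31 ± 0.51), and at 4M it differed by 0.68 ± 0.67 (FDR 0.460). S1pr2, which confines cells to the follicle centre, was called at 6M (1.16 ± 0.18), with 70 to 192 counts in BALB/c and 189 to 326 in NOD.H-2b. Cxcr5, shared with other B cells, was higher by 8.96 ± 0.69 at 4M and 8.80 ± 0.45 at 6M.

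**Figure D5:**
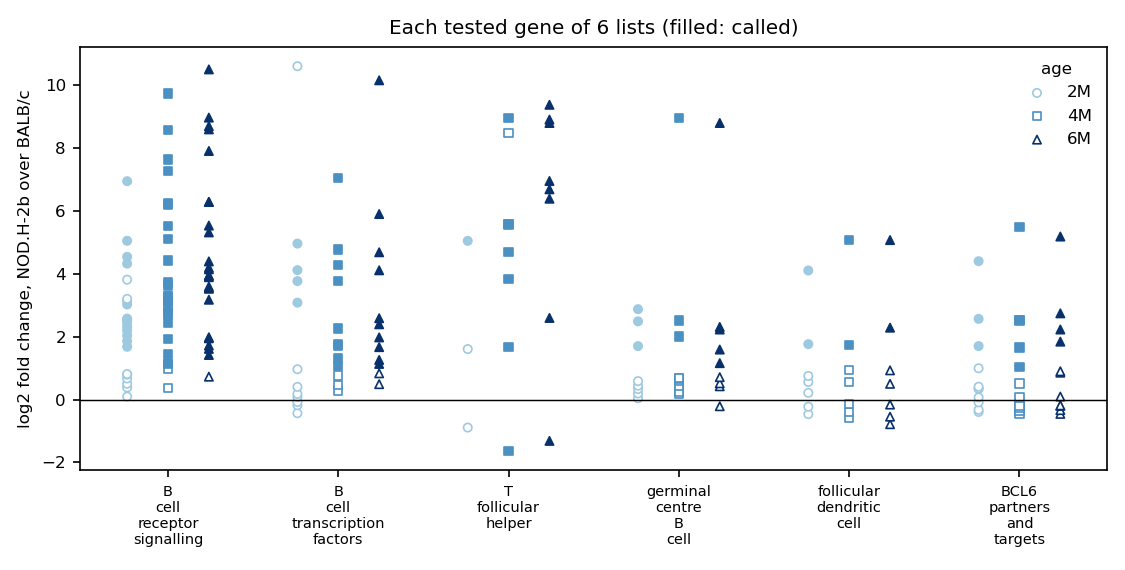
Log2 fold change of NOD.H-2b over BALB/c (y axis) for each tested gene of 6 lists at 2M, 4M and 6M, with filled points for called genes. At 6M the median is 3.95 for B cell receptor signalling and 1.16 for germinal centre B cells, where Cxcr5 (8.80) lies apart from the rest.

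Of 11 BCL6 partners and targets, 3, 5 and 4 were called higher at 2M, 4M and 6M, against 12.0%, 15.6% and 18.8% of all genes. The corepressors Bcor and Ncor1 and the deacetylase Hdac3 differed by less than 2-fold at each age, between -0.45 and -0.088. Cd69, a marker of recent activation in lymphocytes, was higher by 4.41 ± 0.85 at 2M and 5.19 ± 0.47 at 6M. Irf4 was higher by 2.57 ± 0.40, 2.53 ± 0.23 and 2.75 ± 0.13 at 2M, 4M and 6M. Ccnd2, a cyclin, was called at 4M (1.66 ± 0.21) and 6M (1.85 ± 0.20).

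Most follicular helper T cell genes were called from 4M. Of 9 listed, 1 of 3 tested was called higher at 2M, 6 of 8 at 4M and 7 of 8 at 6M, against 12.0%, 15.6% and 18.8% of all genes. Sh2d1a, an adaptor for contact with B cells, was higher by 5.05 ± 0.83 at 2M and 6.69 ± 0.57 at 6M. Il21, the cytokine that drives germinal centre B cells, had 0 counts in all BALB/c mice, 0, 11 and 2 counts in NOD.H-2b at 2M, 117, 19 and 9 counts at 4M and 156, 39 and 70 counts at 6M. Tox2, a transcription factor of these cells, was called at 4M (1.68 ± 0.35) and 6M (2.60 ± 0.40). Ascl2, a transcription factor of these T cells that is also made in epithelium, went the other way, at -1.63 ± 0.29 at 4M and -1.31 ± 0.28 at 6M.

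Of 8 follicular dendritic cell genes, 7 were tested and 2 were called higher at each age, against 12.0%, 15.6% and 18.8% of all genes. Cxcl13, the chemokine that draws B cells into follicles, was higher by 4.11 ± 0.45, 5.08 ± 0.33 and 5.08 ± 0.40 at 2M, 4M and 6M. In NOD.H-2b at 2M it had 144 counts in replicate 1, against 334 and 151 in the others and 5 to 15 in BALB/c. Replicate 1 was the lowest mouse of its group in all of the 8 genes but Bcl6. Enpp2, which makes lysophosphatidic acid, was called at 4M (1.74 ± 0.23) and 6M (2.29 ± 0.19), and Clu, a secreted chaperone, at 2M (1.77 ± 0.12). Mfge8, also on the list, was not called at any age, with a mean difference of -0.61 over the 3 ages. Madcam1 was at 0 to 2 counts in every mouse. The summed level of the list was lower in NOD.H-2b without overlap at 2M and 6M, and the strains overlapped at 4M. With at least 312 CPM in every BALB/c mouse, the sum is not read as a measure of follicular dendritic cells. At 2M it was between 293 and 323 CPM in NOD.H-2b and between 328 and 335 CPM in BALB/c. The sums were 285 to 326 and 324 to 363 CPM at 4M and 281 to 296 and 312 to 345 CPM at 6M. Glycam1, a ligand made by high endothelial venules, had 252 to 438 counts in NOD.H-2b at 4M and 346 to 838 at 6M, and at most 1 in any BALB/c mouse. It is from a list of 6 genes of lymph node stroma and these venules. At 4M in NOD.H-2b the list summed to between 6.02 and 7.61 CPM, and 2 of its genes had no counts. Nothing on venules is read from this single gene.

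Of 7 partners and ligands of CR2, 2 of 5 tested were called higher at 2M and 5 of 7 at 4M and 6M, against 12.0%, 15.6% and 18.8% of all genes. The list holds Fcer2a, which is also 1 of the 8 genes and was called at 4M and 6M. The complement genes C3 and C4b were called at each age, C3 by 1.61 ± 0.25, 1.61 ± 0.16 and 2.17 ± 0.12 and C4b by 3.15 ± 0.17, 2.61 ± 0.19 and 3.22 ± 0.13. Cr1l, a widely made complement regulator, differed by -0.03, -0.0013 and 0.06.

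Relatives of Ms4a1 and Fcrla also moved. Of 9 genes of the MS4A family, 8, 6 and 7 of 8 tested were called higher at 2M, 4M and 6M, against 12.0%, 15.6% and 18.8% of all genes, among them Ms4a4b, made by T cells (5.87 ± 0.15 at 6M), Ms4a4c (5.34 ± 0.28), Ms4a6b (4.29 ± 0.20), Ms4a6c (3.39 ± 0.15) and Ms4a7, made by macrophages (1.97 ± 0.20). Unlike Ms4a1, Ms4a7 was present in all mice, with 442, 441 and 443 counts in NOD.H-2b at 2M against 42, 78 and 40 in BALB/c. Of 5 Fc receptor-like genes, 2 were called at each age, against the same shares. Fcrl1, a B cell receptor of this family, was higher by 4.90 ± 1.17 at 2M and 8.39 ± 0.52 at 6M. Fcrls, made by macrophages and microglia, was called at 2M (1.00 ± 0.22) and differed by -0.17 ± 0.32 at 6M (FDR 0.669).

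Of 9 genes of marginal zone and B1 cells, 3, 6 and 6 were called higher at 2M, 4M and 6M, against 12.0%, 15.6% and 18.8% of all genes. Cd5, shared by B1 and T cells, was higher by 6.18 ± 0.83 at 2M and 6.39 ± 0.38 at 6M, and it is also in the T cell list. Dtx1, a Notch target of marginal zone B cells, was higher by 1.80 ± 0.44, 4.24 ± 0.36 and 6.08 ± 0.34. S1pr1 and Cd1d1, which hold these cells at the marginal zone and present lipids, were called at 4M and 6M, by 3.44 ± 0.16 and 3.16 ± 0.32 at 6M. Bhlhe41, a factor of B1 cells, was not called at any age, with differences between -0.25 and 0.14.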

How the data were processed

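A single LG was taken from each of the 18 males, and its RNA was sequenced after removal of ribosomal RNA. Read trimming (cutadapt), alignment to GRCm38 (STAR) and counting per gene (HTSeq) were done by the authors. The raw counts they deposited are the values analysed here. A second deposited table of normalised values was not used here. The annotation release and the strand setting are not given in the sources used here. Reads of both strains were aligned to 1 reference genome, and the part of sequence differences between the strains was not tested.

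Counts were fitted with edgeR 4.0.16 in R 4.3.3 (TMM, filterByExpr, robust quasi-likelihood test, Benjamini-Hochberg adjustment) on the 6 mice of each comparison and on all 18 for strain by age. Calls required an FDR under 0.05 and at least 2-fold. The SE given with an edgeR fold change is its absolute value divided by the square root of the F statistic. It thus restates the test and is not a separate measure of the spread between mice. The floor was 3 counts. Lengths and coordinates are those of GENCODE M21. Single values were tested by exact permutation. The edgeR fits of the strain comparison at 2M and of strain by age to 6M were first tested on simulated data. The permutation test between strains was tested in this way as well, and the other fits were not. Members and gene lists were chosen with earlier results of these data known. The genes named from a list are up to 4 with the largest absolute mean log2 fold change over the strain comparisons among those tested at all ages. Others are named for their role after their values were seen. Genes most like a member were ranked by Pearson's r among the genes that passed the filter over 18 mice. Alternatives were DESeq2 1.42.0 (size factors and Wald test), the upper quartile, other filters, glmTreat, the replicate number as a block, other sets of mice and leaving out each mouse, and, for the relative levels, other pseudocounts, library sizes and references. Some genes of the lists are counted but not reported here by name.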

Additional observations from a re-analysis of the deposited data

Results flagged for a closer look

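A test of the strain by age term on all 18 mice gave a larger strain difference of Fcer2a at 6M than at 2M, by 4.60 ± 1.45 on the log2 scale (edgeR FDR 0.0484). At 2M the group means were 1.18 (NOD.H-2b) and 0.226 CPM (BALB/c), and at 6M they were 27.4 and 0.190 CPM. At 6M all 3 NOD.H-2b mice lay above all BALB/c mice, and at 2M replicate 1 of NOD.H-2b lay below them. The FDR was between 0.0137 and 0.161 over the mice left out in turn, and the call was lost for 9 of these 12 mice.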

How the results depend on the processing

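The calls of 7 genes at 4M and 6M were made under the alternatives run, except that a minimum of 10 counts in every mouse, which removes genes near 0 in BALB/c, left 3 and 2 calls, and it left 0 at 2M, 0 in BALB/c from 2M to 4M and to 6M, 1 and 2 in the NOD.H-2b intervals 2M to 4M and 2M to 6M and 0 for strain by age. With glmTreat the count was 1 at 2M, 1 in BALB/c from 2M to 4M, 0 in NOD.H-2b over both intervals from 2M and 0 for strain by age. A fit of all 18 mice gave 6 at 2M, 0 in BALB/c from 2M to 4M and to 6M, and 7 for NOD.H-2b, 2M to 4M. With no filter the count was 2 in BALB/c from 2M to 6M, 0 and 4 in the same NOD.H-2b intervals, and 0 for strain by age. DESeq2 called 7 for NOD.H-2b, 2M to 4M, and 1 and 3 for strain by age to 4M and to 6M. Its size factors in edgeR, and a fit of the 12 mice of 2M and 6M alone, gave 0 for strain by age to 6M. The cause of these changes was not tested.

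Replicate numbers did not pair the mice (mean correlation 0.0045 over 45 pairs with the same number, and 9 of 18 mice correlated best with their own number). With the replicate number as a block, the counts were 0 in the NOD.H-2b intervals 2M to 4M and 2M to 6M and 0 for strain by age to 6M, and Bcl6 at 2M differed by 0.074.

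Over mice left out in turn the count of calls ranged from 1 to 7 at 2M, 2 to 3 in BALB/c from 2M to 4M, 1 to 2 from 2M to 6M, 0 to 4 for NOD.H-2b, 2M to 4M, 2 to 7 from 2M to 6M and 0 to 1 for strain by age to 6M. The test of the relative levels between strains, not read because the BALB/c reference is near 0, passed for 4 to 5 of 5 genes. Between 2M and 6M in NOD.H-2b, 2 to 5 of them were separate, and 4 with a pseudocount of 1. Relative to Ms4a1 alone, Cr2 differed by -0.42 and Pax5 by 0.18.

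The other changes of sign were in differences that were not called. Over the mice left out, Bcl6 ranged from -0.54 to 0.75 at 2M and from -0.97 to 0.19 at 6M, from -1.05 to 0.092 in BALB/c between 4M and 6M and from -0.043 to 1.61 between 2M and 6M, from -0.47 to 0.24 in NOD.H-2b between 4M and 6M, and from -1.38 to 0.28 for strain by age to 6M. In BALB/c between 4M and 6M, Cd79a ranged from -0.22 to 0.22, Cd79b from -1.31 to 0.46 and Fcrla from -0.93 to 0.53. Fcer2a in BALB/c ranged from -0.12 to 0.62 between 2M and 4M and from -0.76 to 0.18 between 2M and 6M. For strain by age to 4M, Ms4a1 ranged from -0.74 to 3.92, Cd79b from -0.48 to 0.96 and Fcrla from -0.63 to 1.94, and to 6M Cd79a ranged from -1.12 to 0.54. With the upper quartile, Cd79b was at -0.0036. Genes near 0 in BALB/c limit the strain and strain by age fits.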
